A study of Mus musculus with 3 samples.

Results

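Matricellular proteins are secreted into the extracellular matrix but add little to its structure. They bind integrins, growth factors and collagens and so change how a cell adheres, migrates and responds to its matrix. In brain they are known for their low level in the adult and their rise at injury sites and in glioblastoma, where osteopontin, tenascin-C and SPARC have been studied in invasion and in contact with myeloid cells. Their transcripts were measured here in SB28, a transplantable mouse glioblastoma cell line.

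The 10 genes described are Spp1, Thbs1, Thbs2, Sparc, Tnc, Postn, Ctgf, Cyr61, Nov and Wisp1, out of 24421 gene symbols in the count tables, and all 10 symbols were found. They were chosen by name, and Spp1, Thbs1 and Sparc because they were already known to be among the most abundant transcripts of these libraries, so their high levels are a description and not a finding. The samples are 3 RNA-seq libraries of 1 group, SB28 on the C57BL/6 background, with brain as the labelled source. A TruSeq kit was used for all libraries, on 1 µg of total RNA each. There is no untreated, treated or normal tissue group, and the labels give no culture condition, passage or age of the line. Whether the replicates are separate cultures is not stated, so every spread below measures only these samples and may be technical.

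Replicates 1, 2 and 3 held 36019009, 28990128 and 32632858 counts in genes. Replicates 1 and 2 lay close together: a chi-square test against counting noise, with Benjamini-Hochberg adjustment over all genes tested, called 256 of 12746 genes (2.01%) between them. It called 64.0% between replicates 1 and 3 and 62.8% between replicates 2 and 3. Replicate 3 therefore stands apart, and values without it are given beside the main results that rest on it. The labelled source is brain, and of its neural and glial cells only astrocytes and microglia were checked against markers. Of 6 astrocyte markers, Gja1 and Aldh1l1 were detected, Slc1a2 and Slc1a3 had counts but stayed below 1 CPM (counts per 1000000 counts in genes), and Gfap and Aqp4 had 0 counts. In addition, 9 of 10 microglia and macrophage markers lay below 1 CPM in all libraries, with Aif1, Tyrobp and Adgre1 at 0.

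SB28 carried abundant transcripts of several secreted adhesion modulators. Of the 10 genes, 9 reached 1 CPM in every library, where 46.6% of all genes did. Spp1, Thbs1 and Sparc were picked for their abundance, so they reached it by choice and the count is a description only. Lengths differ between the genes, so their levels are compared as CPM per kilobase of exon, and a level is given as mean ± SD over 3 libraries. Spp1 was highest at 3641 ± 1258, followed by Thbs1 at 817 ± 70.2 and Sparc at 754 ± 156. Cyr61 stood at 479.9 ± 9.85, Tnc at 233 ± 55.8, Thbs2 at 186 ± 60.6 and Ctgf at 89.1 ± 12.5. The median of the 11318 detected genes with a known length was 7.57, so these 7 genes all lay well above it. Wisp1 at 9.36 ± 2.35 lay close to that median, and Nov at 3.26 ± 0.328 lay below it. Postn, at 0.0241 ± 0.0172, was the 1 gene of the set that was not detected.

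The order of neighbours was not everywhere larger than their spread. Sparc lay above Thbs1 per kilobase in replicates 1 and 2 and below it in replicate 3, so these 2 genes have no fixed order. Tnc lay above Thbs2 in each library, but the ranges of the 2 genes over libraries overlapped. All other neighbours had ranges that did not overlap. Per kilobase, Spp1 ranked 2 among 24026 genes with a length, Thbs1 ranked 24, Sparc 30 and Cyr61 44.

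**Figure D1:**
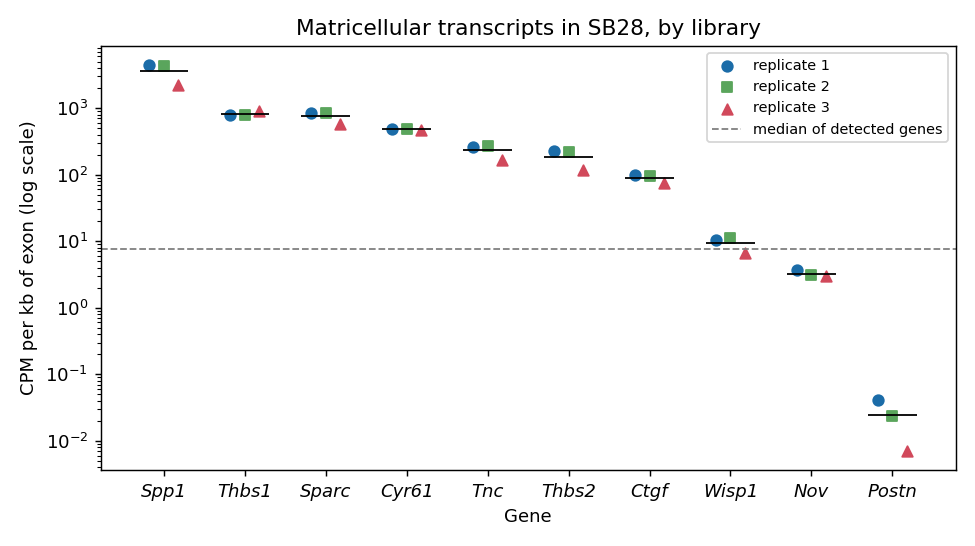
CPM per kilobase of exon (log axis) of the 10 genes in each of 3 SB28 libraries, with a black line at each gene's mean and a dashed line at the median of detected genes. Levels run from 3641 for Spp1 to 0.0241 for Postn, and 8 genes have a mean above the dashed line.

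Promoter sequence was at hand for 6 of the 10 genes, in 9 windows of 250 bases before an annotated start (RefSeq, GRCm38.p6). Thbs1, Ctgf, Nov and Wisp1 had no window. The only Sparc window lay 3103 bases from the gene's start in GENCODE and overlapped Sparc exons. A further window of Spp1 lay 1074 bases away, over exons of Gm42793, and a further window of Postn 1842 bases away. These distant windows held no TATAAA. Below, Spp1 and Thbs2 are shown because their levels moved most between libraries among the detected members, Cyr61 because its level hardly moved, and Postn because it was nearly silent. All are written 5′ to 3′ on the gene's strand, and capitals mark the letters TATAAA of a TATA box, or GGAATG, the core bound by TEAD factors, on either strand. The windows are chr5:104434861-104435110 (plus strand) for Spp1, chr17:14694263-14694512 (minus) for Thbs2, chr3:145649986-145650235 (minus) for Cyr61 and chr3:54360857-54361106 (plus) for Postn.
Spp1: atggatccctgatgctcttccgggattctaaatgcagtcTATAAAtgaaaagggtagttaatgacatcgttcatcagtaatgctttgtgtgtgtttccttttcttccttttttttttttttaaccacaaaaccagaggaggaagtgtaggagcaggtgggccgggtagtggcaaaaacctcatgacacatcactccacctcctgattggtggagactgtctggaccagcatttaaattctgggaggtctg
Thbs2: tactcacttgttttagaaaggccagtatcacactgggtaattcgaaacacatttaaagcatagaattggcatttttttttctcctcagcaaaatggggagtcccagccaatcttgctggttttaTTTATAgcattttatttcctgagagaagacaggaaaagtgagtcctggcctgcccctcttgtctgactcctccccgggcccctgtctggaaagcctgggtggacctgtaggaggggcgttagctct
Cyr61: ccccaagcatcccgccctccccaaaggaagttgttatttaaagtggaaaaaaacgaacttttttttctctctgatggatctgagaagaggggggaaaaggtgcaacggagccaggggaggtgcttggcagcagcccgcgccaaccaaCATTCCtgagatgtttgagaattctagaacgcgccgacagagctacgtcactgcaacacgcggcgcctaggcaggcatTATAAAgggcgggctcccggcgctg
Postn: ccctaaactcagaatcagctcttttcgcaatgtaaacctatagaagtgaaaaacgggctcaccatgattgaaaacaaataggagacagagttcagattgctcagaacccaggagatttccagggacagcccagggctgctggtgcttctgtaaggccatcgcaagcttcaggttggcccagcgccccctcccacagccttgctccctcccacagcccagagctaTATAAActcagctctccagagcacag
Cyr61 held GGAATG on the opposite strand at 103 to 98 bases before the start, and TATAAA at 25 to 20 bases. Postn held TATAAA at 26 to 21 bases, almost the same place, although its level was a small fraction of that of Cyr61. In Spp1 and Thbs2 the TATAAA letters lay farther away, at 211 to 206 and at 126 to 121 bases (on the opposite strand in Thbs2). Of the 9 windows 6 held TATAAA, against 12.4% of 32851 windows genome-wide, and 2 of the 6 are overlapping windows of Tnc that share 1 match. GGAATG was in 1 of the 9, against 12.6%, and TGANTCA (AP-1) and the CArG box were in none, against 6.75% and 1.47%. Both strands were searched, and a match shows letters only.

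Spp1 encodes osteopontin, an acidic phosphoprotein with an integrin-binding RGD site that also binds CD44. It lies on chromosome 5 at 104435118 to 104441050 (GRCm38). Spp1 stood at 7258, 7135 and 3608 CPM in replicates 1, 2 and 3. Replicates 1 and 2 differed by 1.02-fold, while their mean was 1.99-fold above replicate 3. Without replicate 3 the mean was 7196 CPM, against 6000.0 ± 2073 with it. Among the 10 genes, osteopontin's share of the summed level per kilobase was 61.8% in replicate 1, 61.8% in replicate 2 and 48.6% in replicate 3.

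Sparc encodes osteonectin, a calcium- and collagen-binding glycoprotein, and lies on chromosome 11 at 55394500 to 55423183. Its level was 3248, 3144 and 2174 CPM in the 3 libraries in order. It was again lowest in replicate 3, by 1.47-fold against the mean of the others. Spp1 exceeded Sparc 5.14-, 5.22- and 3.81-fold per base of exon in replicates 1, 2 and 3, a log2 ratio of 2.22 ± 0.25 (SD, n = 3). Without length correction the ratio was 2.23, 2.27 and 1.66, so its size depends on length while its direction does not.

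In replicate 3 Thbs1 was slightly higher, and Thbs2 lower, than in the other libraries. Thbs1 and Thbs2 encode the trimeric thrombospondins 1 and 2, which bind CD36, CD47 and integrins, restrain angiogenesis, and in the case of thrombospondin 1 activate latent TGF-beta. Thbs1 (chromosome 2, 118111876 to 118127133) stood at 4713, 4722 and 5456 CPM. It was the 1 member highest in replicate 3, by 1.16-fold over the mean of the others. Its highest over lowest library, 1.16-fold, was close to the median of 1.15-fold over genes at 100 CPM or more. Thbs2 (chromosome 17, 14665500 to 14694235) stood at 1565, 1535 and 816 CPM, so the mean of replicates 1 and 2 was 1.90-fold above replicate 3.

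Per base, Thbs1 exceeded Thbs2 3.47-fold in replicate 1, 3.55-fold in replicate 2 and 7.71-fold in replicate 3. As a log2 ratio this is 2.19 ± 0.66 (SD, n = 3), and 1.81 without replicate 3. The summed CPM of both genes was 6278, 6257 and 6272, so their total hardly differed between libraries while its division did. With Spp1 low and Thbs1 high in replicate 3, the order of the 2 most abundant members by CPM turned there: Spp1 over Thbs1, a pair added after its values were seen, was 1.54 and 1.51 in replicates 1 and 2 and 0.661 in replicate 3. Per base Spp1 stayed above Thbs1 in all libraries, at 5.67-, 5.57- and 2.44-fold.

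**Figure D2:**
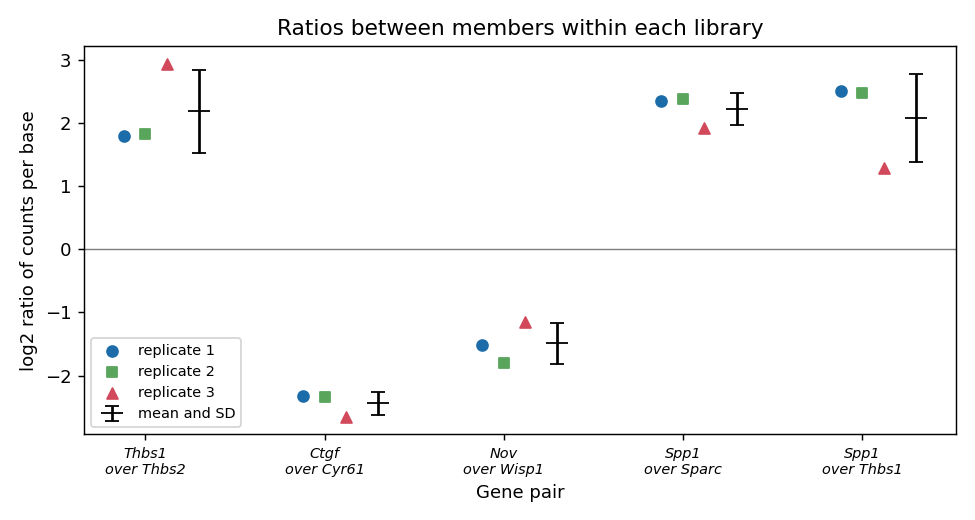
Log2 ratio of counts per base of exon between members in each library (points), with mean and SD in black (n = 3); Tnc over Postn is left out because of its scale. Replicate 3 sits apart for Thbs1 over Thbs2 (7.71-fold against 3.47 and 3.55) and Spp1 over Thbs1 (2.44-fold against 5.67 and 5.57).

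Tnc and Postn lay at opposite ends of the range. Tnc encodes tenascin-C, a multi-armed glycoprotein of embryonic and tumour matrix, and lies on chromosome 4 at 63959785 to 64047015. It stood at 2054, 2070 and 1311 CPM, with replicates 1 and 2 together and replicate 3 lower by 1.57-fold. Postn encodes periostin, a fasciclin-domain protein that binds tenascin-C and collagen, and lies on chromosome 3 at 54361109 to 54391037. It had 13, 6 and 2 counts, or 0.361, 0.207 and 0.0613 CPM. Leaving out replicate 1 took its mean from 0.210 to 0.134 CPM. The exact Poisson 95% intervals, which cover counting error only, were 0.192 to 0.617, 0.076 to 0.45 and 0.00742 to 0.221 CPM. Its counts were too few for the test of variation between libraries, and with no minimum count it did not pass that chi-square test (adjusted p = 0.0559), so a difference was not detectable at this depth. Over the summed libraries Tnc exceeded Postn 9424-fold per base, with a counting interval of 6165 to 15225.

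The CCN family are cysteine-rich proteins that bind integrins and heparan sulphate and are encoded by Cyr61 (Ccn1), Ctgf (Ccn2), Nov (Ccn3) and Wisp1 (Ccn4). Cyr61 and Ctgf are well known targets of YAP and TAZ with TEAD factors. Cyr61 (chromosome 3, 145646976 to 145649981) stood at 990, 966 and 951 CPM and was the steadiest of the 10 genes, with a highest over lowest library of 1.04-fold. Ctgf (chromosome 10, 24595442 to 24598683) stood at 281, 269.6 and 214 CPM, lowest in replicate 3 by 1.28-fold. Exons of Ctgf, Thbs1 and Tnc overlap annotated non-coding genes on the opposite strand, and without a stated strand setting their reads cannot be told apart. Exons of Spp1 overlap Gm42793, annotated on the same strand, so the origin of reads there cannot be told even with strand. None of these overlapping genes is listed in the count tables, so such reads may have been counted for the member. Ctgf lay below Cyr61 in each library, with a log2 ratio per base of −2.44 ± 0.19 (SD, n = 3) and −1.94 without length correction.

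Nov and Wisp1, the other two CCN genes, were far lower. Nov (chromosome 15, 54745702 to 54754039), whose product is often described as a growth restraint, stood at 10.4, 9.04 and 8.61 CPM. Wisp1 (chromosome 15, 66891320 to 66923201), a WNT-inducible member, stood at 58.0, 61.2 and 37.1 CPM. Replicate 3 was lower than the others for Wisp1, by 1.60-fold against their mean. For Nov the libraries lay within 1.21-fold of each other. Nov lay below Wisp1 per base in every library, at −1.49 ± 0.33 on the log2 scale (SD, n = 3). Cyr61 alone made up 81.4%, 81.5% and 84.8% of the summed level per kilobase of these 4 genes.

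Set against counting noise, 8 of the 9 members with a mean count of at least 10 varied between the 3 libraries in the chi-square test (adjusted p under 0.05), where 65.7% of 12737 genes did. With so high a background the call alone says little about the members. The adjusted chi-square p was 2.36e-05 for Cyr61 (1.04-fold), 3.69e-44 for Wisp1 (1.65-fold) and 5.83e-68 for Ctgf (1.31-fold), and below 1e-300 for Spp1, Thbs1, Thbs2, Sparc and Tnc. Nov did not pass (adjusted p = 0.0645 in the same chi-square test). Of the 8 genes called, 7 were lowest in replicate 3 and 1, Thbs1, was highest there, where 31.5% and 33.0% of all genes tested were called in those directions. Between replicates 1 and 2 alone, 4 of the 9 were called, where 2.01% of genes were. These were Spp1 (1.02-fold), Thbs2 (1.02-fold), Sparc (1.03-fold) and Cyr61 (1.03-fold). At high counts the test calls such small differences, and the 2.01% is not matched on level. This test compares libraries, not conditions.

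The sizes of these differences were set beside those of all genes. Highest over lowest library was at least 1.5-fold in 4 of the 9 members, namely Spp1 (2.01), Thbs2 (1.92), Wisp1 (1.65) and Tnc (1.58), where 23.0% of genes tested reached that size. Of the 7 members at a mean of 100 CPM or more, 3 reached it, against 8.16% of the 2413 genes at that level. Without replicate 3 the count fell from 4 to 0, since replicates 1 and 2 differed by at most 1.15-fold in any of the 9 members, and 2.84% of genes tested reached it. The median over the 9 members was 1.49-fold, against 1.23-fold over all genes tested and 1.15-fold over those at 100 CPM or more, and between replicates 1 and 2 alone it was 1.03-fold for the members and 1.04-fold for all genes tested. Replicate 3 against the mean of the other libraries had a median of −0.56 on the log2 scale over the members and −0.01 over all genes tested. In a test added after seeing the data, the noise of each gene was the spread that edgeR fitted as a trend with level. There Spp1, Thbs2 and Tnc had an unadjusted p under 0.05, as did 7.47% of genes tested. None passed adjustment there (adjusted p = 0.0899 for Spp1 and 0.143 for Thbs2), where 1.08% of genes tested did. In that test the unadjusted p of Thbs1 was 0.634.

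**Figure D3:**
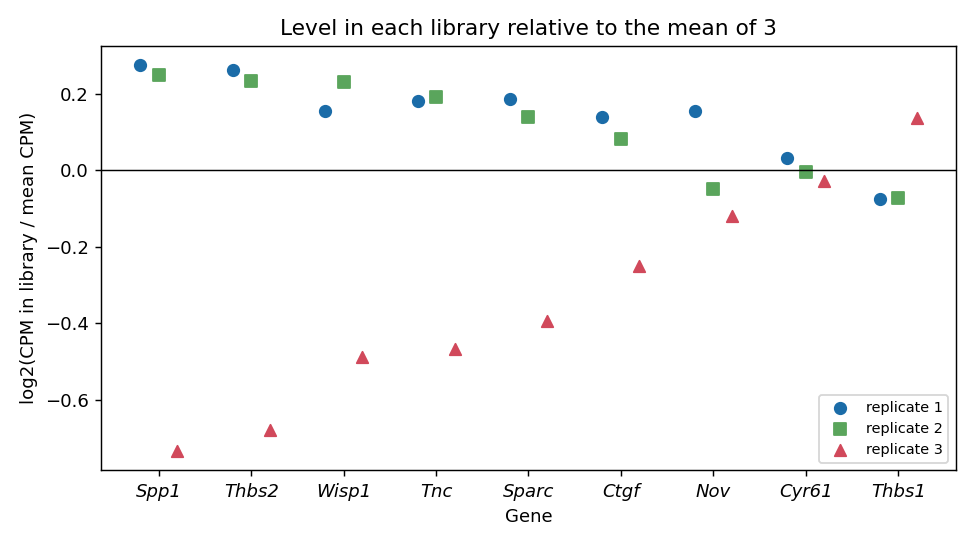
Log2 of CPM in a library over the mean of 3 libraries, for the 9 members with a mean count of at least 10, ordered by replicate 3. Replicate 3 is lowest in 8 genes, down to a 2.01-fold range for Spp1, and highest only for Thbs1, while Cyr61 stays within 1.04-fold.

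For 3 members, the genes nearest in pattern were sought among genes with a mean of at least 100 CPM, by the Euclidean distance of log2(CPM / mean CPM) over the 3 libraries. Nearest to Spp1 was Plod2, a collagen lysyl hydroxylase, at 204, 202 and 102 CPM (distance 0.011), followed by the desaturase Scd1 (0.038), Laptm4b (0.0428) and the desaturase Fads1 (0.0474). Sparc was nearest to Srebf2, a transcription factor of sterol synthesis, at 525, 509 and 350.0 CPM (0.0054), then to Palld (0.00692), Litaf (0.00795) and Sulf2 (0.0139). Thbs1 was nearest to Soga1 (0.00318), Rbbp6 (0.00365), Pcm1 (0.00371) and Ahcyl1 (0.00485), each higher in replicate 3. With 3 libraries, of which 2 nearly coincide, such a distance depends by its construction mainly on replicate 3.

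The receptors of these proteins were mostly present. Of 21 receptor genes, 17 were detected, where 46.6% of all genes were, with a median of 4.16 CPM per kilobase against 0.223 over all genes. Itgb1, the common integrin beta chain, led at 591 ± 90.5 CPM per kilobase, followed by the osteopontin and hyaluronan receptor Cd44 (128 ± 11.1), the heparan sulphate proteoglycan Sdc4 (120.1 ± 23.0) and the integrin chain Itgb5 (113 ± 30.6). The thrombospondin receptor Cd36 had 1 count in all, and Itgb6 and Stab1 also lay below 1 CPM in every library. Itga9, an osteopontin and tenascin-C receptor chain named after its values were seen, was split between libraries at 1.39, 1.10 and 0.705 CPM. Of 18 receptor genes tested against counting noise, 14 varied, where 65.7% of all genes tested did. Of these, 12 were lowest and 0 highest in replicate 3, against 31.5% and 33.0% of all genes tested. Between replicates 1 and 2 alone, 2 of 18 were called, where 2.01% of all genes tested were. Itgb3, the partner of Itgav in the classical osteopontin receptor and named after its values were seen, stood at 27.9, 27.9 and 9.41 CPM. It was 1 of the 12 lowest in replicate 3 and had the largest fall of the 18 tested. Itgav stood at 425, 441 and 316 CPM and Cd44 at 904, 922 and 784 CPM. A link of Itgb3 to the level of Spp1 was not tested.

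Most other genes of the same families were not detected. Of 20, 6 were detected, where 46.6% of all genes were. The other 14 lay below 1 CPM in all libraries, as did 12530 of all 24421 genes. Fstl1, a SPARC-related secreted protein, stood at 1317, 1319 and 841 CPM and led the list at 236 ± 56.1 CPM per kilobase. Smoc2, another SPARC relative, stood at 58.8, 57.3 and 125 CPM, highest in replicate 3. Thbs3 reached 3.82 ± 0.24 and Dmp1, which belongs to the same gene family as Spp1, 2.62 ± 0.979 CPM per kilobase. Named after their values were seen, Ibsp, Dspp and Mepe, which with Dmp1 and Spp1 form that family, had 0 counts in all libraries, as did Thbs4 and Spock3. A count of 0 allows up to 0.103 CPM in the shallowest library. Of 9 genes of this list tested, 5 varied, a share below the 65.7% of all genes, with 3 of them lowest and 2 highest in replicate 3, against 31.5% and 33.0%. Between replicates 1 and 2 alone the chi-square test called 0 of the 9, where it called 2.01% of all genes tested. In so short a list 0 calls says little. Of the 9, 0 had an unadjusted p under 0.05, a count given without a share over all genes.

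Of 14 proteases that cut matricellular proteins, 11 were detected, where 46.6% of all genes were. Highest per kilobase were Ctsb (145 ± 9.59), the stromelysin Mmp3 (58.3 ± 8.46), Mmp14 (40.6 ± 1.22) and the procollagen proteinase Bmp1 (32.5 ± 1.99). Mmp9, Mmp7 and F2, the thrombin gene whose product cleaves osteopontin, lay below 1 CPM. Of 11 tested, 9 varied, 8 of them lowest in replicate 3 and 1, Mmp14, highest, against the same shares of 65.7%, 31.5% and 33.0% over all genes. Between replicates 1 and 2 alone the chi-square test called 0 of the 11, where it called 2.01% of all genes tested. In so short a list 0 calls says little. Of the 11, 1 had an unadjusted p under 0.05, a count given without a share over all genes. Of 17 partners in the structural matrix, 15 were detected, against the same 46.6% of all genes. Highest were Col1a1 (262 ± 75.3), Fn1 (223 ± 38.0), Col4a1 (177 ± 29.8) and Col4a2 (132 ± 26.9 CPM per kilobase). Vtn lay below 1 CPM and Dcn, also a fibroblast marker, was split at 1.30, 1.90 and 0.276 CPM. Of 16 tested, 15 varied, 11 of them lowest and 4 highest in replicate 3, against 65.7%, 31.5% and 33.0% of all genes. Col4a1 and Col4a2 were among those highest there, as was Thbs1, while Col1a1 was lowest, as was Spp1. Between replicates 1 and 2 alone, 5 of 16 were called, where 2.01% of all genes tested were, a share not matched on level.

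All 21 genes of a list of known upstream regulators were detected, where 46.6% of all genes were. Jun (113 ± 2.25), Wwtr1, which encodes the YAP relative TAZ (62.7 ± 9.08), Fos (52.6 ± 23.6) and Srf (38.4 ± 8.65 CPM per kilobase) led the list. Fos stood at 89.2, 94.1 and 188 CPM and Srf at 97.2, 95.9 and 139.9 CPM, both highest in replicate 3, where Wwtr1 was lowest at 323, 327 and 249.8 CPM. Of 21 tested, 15 varied (71.4%, near the 65.7% of all genes), 9 of them lowest and 5 highest in replicate 3, against 31.5% and 33.0%. Between replicates 1 and 2 alone, 2 of 21 were called, where 2.01% of all genes tested were.

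**Figure D4:**
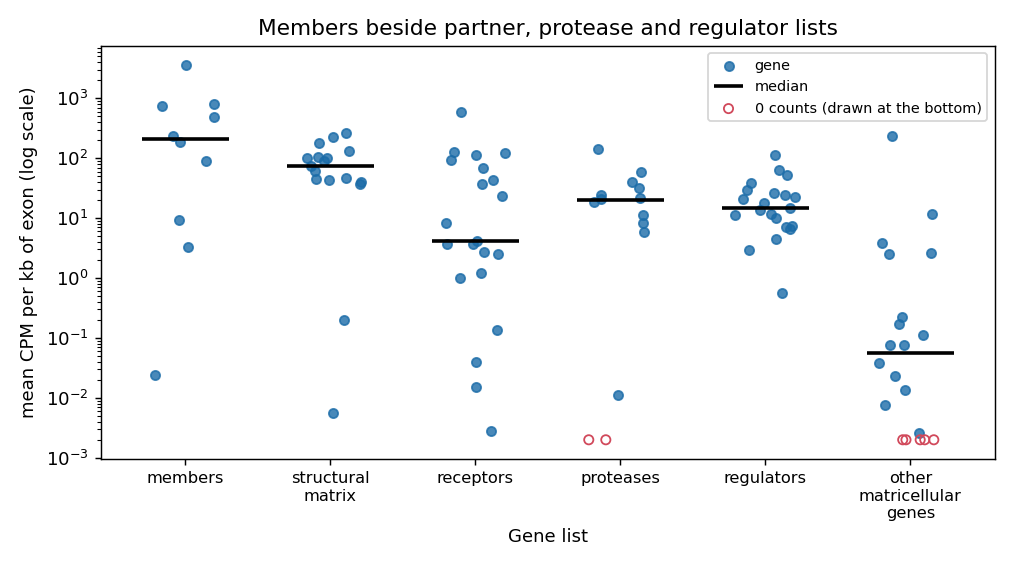
Mean CPM per kilobase of exon (log axis) of each gene in the 10 members and 5 lists of partners, with the median as a black line and genes at 0 counts as open circles at the bottom. Medians are 210 for members, 73.8 for structural matrix, 4.16 for receptors, 19.8 for proteases, 15.0 for regulators and 0.0563 for other matricellular genes.

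Osteopontin and thrombospondin 1 are also made by macrophages and platelets, and several members by fibroblasts and endothelium, so markers of these cells are given beside the levels. The 10 microglia and macrophage markers summed to 5.86, 5.21 and 4.29 CPM, of which Cd68 alone held 5.16, 4.79 and 3.34. Of 4 platelet markers, Pf4, Gp9 and Ppbp had 0 counts and Itga2b 4.58, 4.17 and 3.10 CPM. The 5 endothelial markers summed to 382, 373 and 306 CPM, nearly all from Cdh5, with Cldn5 at 0 and Pecam1 at 4, 2 and 0 counts. Kdr, also detected, was highest in replicate 3 at 1.11, 1.07 and 2.64 CPM. Tek was lowest there at 1.08, 0.966 and 0.552 CPM. The 7 fibroblast and pericyte markers summed to 2767, 2674 and 1916 CPM, and 5 of them were detected. Of the others, Dcn stood at 1.30, 1.90 and 0.276 CPM and Lum had 1, 2 and 0 counts. This sum was lowest in replicate 3, as were Spp1, Sparc, Thbs2 and Tnc. So was the sum of every other marker group, with the astrocyte markers at 518, 519 and 420 CPM. Each of these sums came mostly from 1 gene, namely Cd68, Itga2b, Cdh5 or, for astrocytes, Gja1 at 511, 512 and 414 CPM. The sums therefore do not stand for the other markers of a group, such as Kdr. Col1a1 made up most of the fibroblast and pericyte sum, while Acta2, an actin of contractile cells, was highest in replicate 3 at 538, 531 and 613 CPM. The part of such cells in the results was not tested. In bulk samples, fewer cells of a type and less RNA per cell cannot be told apart.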

How the data were processed

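The deposited files hold raw counts for each gene symbol, in a separate file for each library, made by the authors from 3 SB28 RNA-seq libraries. Bowtie2 2.2.4, HTSeq and the assembly mm10 are named in the submitters' processing notes; their options, strand setting and annotation are not given in the sources used here. Lines for reads without a gene (15.2% to 17.1% of each library) were left out. Reads placed at several positions or on overlapping genes are usually not counted by HTSeq.

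CPM was computed over counts in genes. Length is the union of exons in GENCODE M21 (GRCm38); 23350 symbols matched directly, 676 through RefSeq synonyms (among them Ctgf, Cyr61, Nov and Wisp1) and 395 did not match. Detection means at least 1 CPM in every library. Variation was tested where the mean count was 10 or more by a chi-square test after TMM scaling (edgeR 4.0.16, R 4.3.3), with Benjamini-Hochberg adjustment. Log2 ratios within a library used a pseudocount of 0.5 counts. On simulated counts for this comparison, 12735 genes were tested, with 50 genes at each size of change. The test called 70% of genes given a 1.2-fold change in 1 library and 84% of those given a 1.5-fold change. For 2-fold and 3-fold changes it called 92% and 98%. It called 0.0399% of genes left unchanged. These rates hold for the simulated counts and are not error rates for the real libraries. There, calls fell from 65.7% to 1.08% of genes when the spread that edgeR fitted as a trend with level was taken as noise. Intervals and floors (3 counts) cover counting error only, since PCR copies are not independent molecules. With 1 group there is no contrast between conditions.

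The members, lists and tests were chosen with earlier results of these data known. Besides all 10 members, the genes named are the 4 highest per kilobase in each list, list genes below 1 CPM in every library where there are fewer than 6, cell type markers, and the 4 genes nearest in pattern; any other is marked in the text. Alternatives covered scaling (DESeq2 1.42.0 size factors, totals), thresholds, length, pseudocount and leaving out each library. Other steps ran in Python 3.11.15 with scipy 1.17.1, numpy 2.4.6 and pandas 2.3.3, and figures in matplotlib 3.10.9.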

Additional observations from a re-analysis of the deposited data

How the results depend on the processing

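Of 169 recomputed values, 157 kept their direction and stayed within 1 SD of the value reported (counts: within 1.5 times), 12 moved further and 0 changed direction. Leaving out 1 of 3 libraries, or averaging replicates 1 and 2, cannot move a mean level or mean log2 ratio by 1 SD. Those alternatives stayed within it by construction, and a mean CPM has no direction to change. Their part of the 157 is no measure of stability. The count of members that varied between libraries was 7, 9 and 4 without replicates 1, 2 and 3, and that of all genes 7963, 8191 and 256, against 8 and 8369 with all 3 libraries. Without replicate 3 the 4 members were Spp1, Sparc, Thbs2 and Cyr61. A test added after seeing the data took as noise the negative binomial spread that edgeR fitted as a trend with level. In it 0 members and 137 genes passed, and 3 members and 952 genes of 12737 had an unadjusted p under 0.05. That spread was estimated from the same 3 libraries, replicate 3 included. The count of members at 1.5-fold or more between libraries was 4 without replicate 1 or 2 and 0 without replicate 3.

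With the longest transcript in place of the union of exons, the log2 ratio was −2.24 for Ctgf over Cyr61 and 1.63 for Spp1 over Sparc. Without length correction it was −1.94 for Ctgf over Cyr61, −2.45 for Nov over Wisp1, 1.02 for Spp1 over Sparc and 0.21 for Spp1 over Thbs1. With a pseudocount of 5 counts, Tnc over Postn was 12.5 against 13.4, which reflects the few counts of Postn. Leaving out 1 library gave 1.81 to 2.39 for Thbs1 over Thbs2, −2.50 to −2.33 for Ctgf over Cyr61, 13.0 to 13.8 for Tnc over Postn, −1.66 to −1.34 for Nov over Wisp1 and 2.15 to 2.37 for Spp1 over Sparc. No paired analysis was possible because the study has 1 group. Among the members, depth limits Postn most, with 21 counts in all.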
